A study of Rattus norvegicus with 24 samples.

Results

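The AP-1 genes followed here were the 8 genes Fos, Fosb, Fosl1, Fosl2, Jun, Junb, Jund and Atf3, taken by name from the rat lung arrays of an inhalation study of hexanal, a volatile aldehyde of indoor air. All 8 were on the array, with 9 of its 30367 probes, because Fosl2 had a second probe. Of the 8 genes, 7 passed the filter on dim probes and were tested among 21255 genes or unnamed probes, and Fosl1 did not pass it.

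AP-1 is a transcription factor made of pairs of proteins that hold each other by a leucine zipper. The Fos proteins bind DNA only as a partner of a Jun protein, whereas Jun proteins can also pair among themselves, and Atf3 is a related factor that responds to stress and often represses its targets. Most of these genes are immediate early genes, whose mRNA is made within minutes of a signal through the MAP kinases and decays quickly, and in lung they respond to growth factors, irritants, stretch and the handling of tissue. Jund is the member known for a steady level in resting cells.

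Fischer-344 rats of both sexes, 7 to 8 weeks old per the labels, breathed filtered clean air (control) or hexanal at 600, 1000 or 1500 ppm in a nose-only chamber for 4 hours a day on 5 days a week. The labels' titles and the paper's methods give the doses in ppm and the methods give 4 weeks of exposure, while the labels elsewhere state mg/m3 for those values and 5 weeks. Each of the 4 groups had 6 rats, 3 males and 3 females, and each rat gave 1 array of total lung RNA labeled with Cy3. Whole-lung RNA mixes many cell types, so fewer cells of a type and less mRNA per cell cannot be told apart in any value below.

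The 24 arrays lay on 6 slides of 4 arrays, each with rats of 1 sex, and the control and 1500 ppm groups shared no slide. On each array the level of a gene was the log2 of its processed signal minus the 75th percentile of that array. Precision is limited by how many arrays there are. The 75th percentile was 1701 on the array of 1500 ppm rat 36 and between 2317 and 3133 on the other arrays, and 70.7% to 81.7% of probes were well above background. The 6 markers of lung epithelium, among them Sftpc and Scgb1a1, were well above background on all 24 arrays, as were the 4 endothelial markers.

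The promoters of Junb and Jund are printed because of their calls below. Junb was called lower at 1500 ppm, a call that was lost without control rat 23, and Jund was not called. Over both sexes Jund had the smallest difference from control there of the 7 genes tested. Junb and Jund were not tested against each other, and no link between promoter letters and levels was tested. Both windows are the 250 bases before the gene's start in RefSeq on build GRCr8, 5′ to 3′ in the direction of the gene. Capitals mark the letters TATAAA in Junb, a core promoter element that many inducible genes carry. In Jund they mark the letters TGACGTCA, a cAMP response element, which ATF and Jun proteins can bind. The Jund window also holds the letters tataag, which the search for TATAAA did not count.
Junb, chr19:40080876-40081125, plus strand: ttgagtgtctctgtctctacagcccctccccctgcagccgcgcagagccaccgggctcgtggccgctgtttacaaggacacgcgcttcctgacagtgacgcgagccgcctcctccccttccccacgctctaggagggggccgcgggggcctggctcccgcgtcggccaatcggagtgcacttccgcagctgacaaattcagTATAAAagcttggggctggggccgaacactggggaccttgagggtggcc
Jund, chr16:18769772-18770021, minus strand: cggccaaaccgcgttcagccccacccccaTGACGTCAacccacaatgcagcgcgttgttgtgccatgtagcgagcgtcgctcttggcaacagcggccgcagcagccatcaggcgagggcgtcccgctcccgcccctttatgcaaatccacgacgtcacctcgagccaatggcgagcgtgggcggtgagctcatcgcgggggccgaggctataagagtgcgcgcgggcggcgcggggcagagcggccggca

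This element of Junb lay at -49 to -44 from the start, and TATAAA on the gene's strand was found in 8.06% of 33469 rat promoter windows of the same length. The element of Jund lay at -221 to -214, and TGACGTCA, searched on both strands, was found in 1.59% of the windows. The AP-1 site TGAGTCA on either strand was in 4.05% of the windows, and the CArG box, the site of serum response factor, in 1.5%. Entries were matched for 5 of the 8 genes (Fosb, Fosl1, Fosl2, Junb and Jund), and none of the 5 held TGAGTCA or a CArG box in this window. Fos, Jun and Atf3 were not matched.

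A gene was called at a dose when it differed from control by at least 1.5-fold with an unadjusted limma p-value under 0.05, the fold and p-value that the study used. Of the 7 AP-1 genes tested, Fos, Jun and Junb were called lower at 1500 ppm, Jun alone was called lower at 1000 ppm, and 0 were called at 600 ppm. Across all genes tested, 0.522% were called lower at 1500 ppm, 0.343% at 1000 ppm and 0.456% at 600 ppm. The number of AP-1 genes called higher was 0 at each dose, where 0.16%, 1.29% and 0.701% of all genes were called higher at 600, 1000 and 1500 ppm. The methods' t-test on the same values called 0, 1 and 2 AP-1 genes at the 3 doses, all lower, and left out Junb.

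After Benjamini-Hochberg adjustment over all genes, 0 of the 7 had an adjusted p-value under 0.05 at any dose with limma or with the methods' t-test. Without adjustment, limma gave 1, 1 and 4 of the 7 a p-value under 0.05 at 600, 1000 and 1500 ppm, and the methods' t-test gave 0, 1 and 2. Across all genes tested limma gave 4.33%, 8.99% and 6.97% such a p-value, and 0, 4 and 1 genes had an adjusted p-value under 0.05. The differences pointed lower in 4 of 7 genes at 600 ppm and in 6 of 7 at each of the higher doses. Their median difference was -0.13, -0.11 and -0.24 on the log2 scale, while the median over all genes tested was -0.001, 0.005 and 0.013. The 3 comparisons share their control rats. The split of calls over all genes moved with the scaling. At 1000 ppm 275 were called higher and 73 lower, against 74 and 352 with normexp background correction, and 539 and 30 without scaling. Without scaling 76 genes rose past the call and 64 fell past it at 600 ppm, and 102 and 160 did so at the highest dose, against 34 and 97, and 149 and 111, with scaling. Under each scaling the AP-1 genes called were lower.

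**Figure D1:**
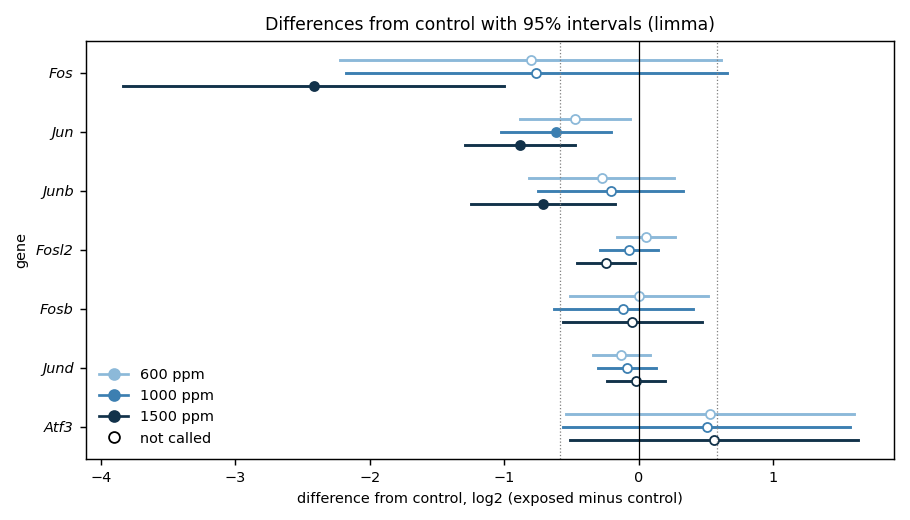
Difference of each AP-1 gene from control on the log2 scale (horizontal axis, exposed minus control) at 600, 1000 and 1500 ppm, with 95% intervals from limma on 24 arrays; filled points were called and dotted lines mark a 1.5-fold difference. Fos at 1500 ppm, at -2.42, lies farthest from 0, and the 3 intervals of Jun lie wholly below 0.

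Fos (NM_022197) encodes the partner that gives AP-1 its classical Fos-Jun form. Its level in the control rats was -2.31 at the lowest, 0.42 at the median and 1.66 at the highest. In the 600 ppm group the lowest, median and highest levels were -2.42, -0.73 and 0.26, and in the 1000 ppm group they were -3.27, -0.52 and 0.27. In the 1500 ppm group they were -3.91, -2.95 and -0.80. All 6 rats at 1500 ppm lay below the control mean and 4 of them below every control rat, but the 2 ranges overlapped.

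The control rats averaged -0.17 ± 1.51 for Fos and the rats at 1500 ppm averaged -2.59 ± 1.095 (SD, n = 6 each). The difference was -2.42 (standard error 0.68), which is 5.35-fold lower. The exact permutation test of 6 rats against 6, two-sided, gave p = 0.0173 for Fos, 0.6249 after adjustment over all genes, and limma gave an adjusted p-value of 0.405. At the lower doses the differences were -0.80 and -0.76 (standard error 0.68 each), with exact permutation p of 0.294 and 0.379. Neither was larger than the spread between rats, and in linear terms the 24 rats covered a 47.6-fold range of Fos.

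Jun (NM_021835) encodes a Jun protein, one of the partners that Fos proteins need to bind DNA. Its lowest, median and highest levels were 3.37, 3.79 and 4.64 in the control rats, and 2.90, 3.37 and 3.92 at 600 ppm. They were 2.87, 3.34 and 3.50 at 1000 ppm and 2.44, 3.13 and 3.40 at 1500 ppm. The highest rat was lower at each higher dose, and 5 of the 6 rats at 1500 ppm lay below every control rat, with the remaining rat, 38, inside the control range.

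Mean levels of Jun, from the control rats to the highest dose, were 3.90 ± 0.43, 3.43 ± 0.38, 3.29 ± 0.23 and 3.02 ± 0.36 (SD, n = 6 each). It differed from control by -0.47, -0.62 and -0.88 at the 3 doses (standard error 0.20 each). The exact permutation p was 0.0758, 0.00866 and 0.00433, and 0.928, 0.511 and 0.551 after adjustment over all genes. The adjusted p-value from limma was 0.997, 0.515 and 0.174. At 1500 ppm the gene ranked 23rd of all genes tested by its limma p-value. The call at 1000 ppm, just past 1.5-fold, was lost without control rat 2 (-0.58), control rat 23 (-0.47) or 1000 ppm rat 32 (-0.53).

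Junb (NM_021836) encodes a Jun protein that can restrain the activity of Jun. Its lowest, median and highest levels were 3.34, 4.63 and 5.31 in the control rats and 3.41, 3.67 and 4.14 at 1500 ppm. No rat at 1500 ppm lay below every control rat, although all 6 lay below the control mean. Between these, the 600 ppm rats ran from 3.71 to 4.38 (median 4.18) and the 1000 ppm rats from 3.39 to 4.76 (median 4.24).

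The difference of Junb was -0.28 at 600 ppm, -0.21 at 1000 ppm and -0.71 at 1500 ppm (standard error 0.26 each). At 1500 ppm the exact permutation p was 0.0563 (0.761 after adjustment over all genes) and the adjusted p-value from limma 0.595. This call rested on control rat 23, which had the highest Junb, Jun and Fos of all 24 rats: without it the difference was -0.53, under 1.5-fold, while those of Fos (-2.05) and Jun (-0.74) stayed past it.

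Fosl2 (NM_012954) encodes a Fos protein that lacks the strong activation domain of Fos, and its 2 probes differed in size. The probe used for the gene, the brighter, ran from -4.08 to -3.40 in the control rats (median -3.61) and from -4.11 to -3.75 at 1500 ppm (median -3.90). These ranges overlapped, and the difference of -0.24 (standard error 0.10) had an exact permutation p of 0.0736. The other probe ran from -4.50 to -3.42 in the control rats (median -4.22) and from -4.72 to -4.33 at 1500 ppm (median -4.66), a difference of -0.47 (standard error 0.13, exact permutation p = 0.0130). Neither probe reached 1.5-fold, and both were lower in the rats at 1500 ppm on average.

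Fosb (NM_001256509), whose protein is a close relative of Fos, ran from -1.88 to -0.21 in the control rats (median -0.89) and from -1.48 to -0.48 at 1500 ppm (median -1.16). The second range lies within the first, and the differences of 0.004, -0.11 and -0.05 at 600, 1000 and 1500 ppm had a standard error of 0.25 each. The 95% interval at 1500 ppm ran from -0.56 to 0.47, so a change of either sign within that interval was not excluded.

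Jund (NM_138875) ran from 3.51 to 4.28 in the control rats (median 3.86) and from 3.75 to 4.07 at 1500 ppm (median 3.79), and the groups overlapped. Its differences over both sexes were -0.13, -0.08 and -0.02 at the 3 doses (standard error 0.10 each). At 1500 ppm the 95% interval of this difference ran from -0.24 to 0.19, narrower than for Fosb. Males differed from control by -0.05, 0.14 and 0.24 at 600, 1000 and 1500 ppm, and females by -0.21, -0.30 and -0.28. Without slide taken into account the sexes thus pointed opposite ways at 1000 and 1500 ppm, and the difference over both sexes averages them. Within slides, the steps from control to 600, 600 to 1000 and 1000 to 1500 ppm were 0.01, 0.05 and 0.11 in females. In males these steps were -0.18, 0.14 and 0.13. The steps were not tested, and some rest on 1 rat.

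Atf3 (NM_012912) is the stress-responsive member. In control rat 1 its level was -4.17, whereas the other 23 rats lay between -0.41 and 0.60 (median 0.05), so that the lowest of them was 13.5-fold above rat 1. The differences of 0.53, 0.51 and 0.56 at the 3 doses (standard error 0.52 each) rest on that rat: without it they were -0.20, -0.22 and -0.17, and the sign turned. The exact permutation p was 0.857, 0.859 and 0.820 with all rats. Over the other 5 control rats the mean was 0.21 ± 0.35 (SD).

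Fosl1 (NM_012953), the Fos protein best known from injured epithelium and tumours, was well above background on 1 control array, 1 array at 600 ppm, 0 at 1000 ppm and 2 at 1500 ppm. Its processed signal ran from 5.03 to 56.8 over the 24 arrays. Both arrays at 1500 ppm were of males. With 4 of 24 arrays above background no fold change is given.

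**Figure D2:**
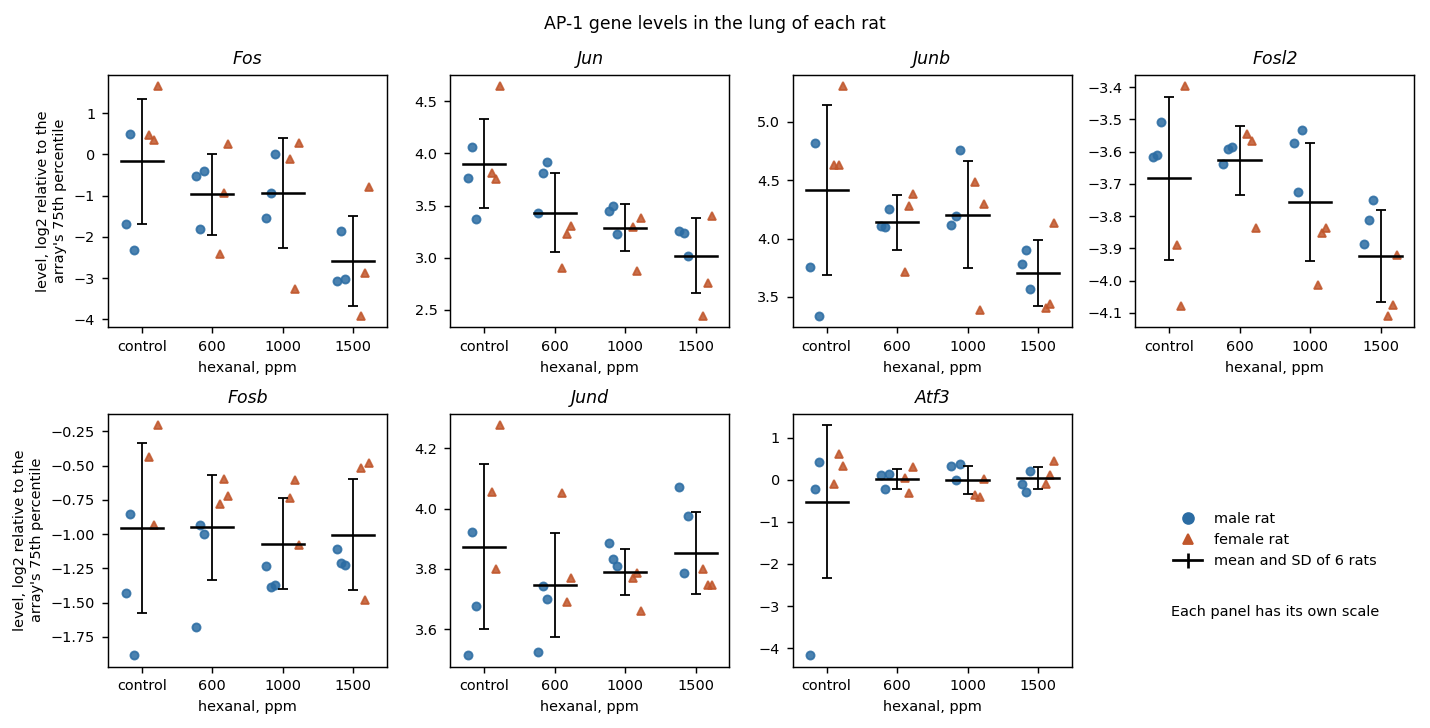
Level of each of the 7 AP-1 genes tested in the lung of each rat (vertical axis, log2 relative to the array's 75th percentile, each panel with its own scale) by hexanal dose in ppm; bars are the mean and SD of 6 rats. The groups overlap in each panel, 4 of 6 rats at 1500 ppm lie below every control rat for Fos and 5 of 6 for Jun, and control rat 1 lies alone at -4.17 for Atf3.

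A straight line on dose was also fitted across the 24 rats. Its slope does not test whether each dose differed from the one before. Jun fell by 0.58 per 1000 ppm on the log2 scale (standard error 0.12, adjusted p = 0.106 from limma, rank 19 of all genes tested). The slope of Fos was -1.48 (standard error 0.44, adjusted p = 0.371) and that of Junb -0.42 (standard error 0.16, adjusted p = 0.502). Those of Fosl2 (-0.17), Fosb (-0.05), Jund (-0.01) and Atf3 (0.35) had adjusted p-values of 0.535 or more. Of the 7 genes 0 passed an adjusted p-value of 0.05, which 0.0141% of all genes tested did, while Fos, Jun, Junb and Fosl2 had an unadjusted p-value under 0.05, as did 8.49% of all genes. With sex as a covariate the slope of Jun was unchanged and its adjusted p-value from limma was 0.0474. Among 10 other settings that keep all rats, only this 1 brought that p-value under 0.05. The 0.0141% above belongs to the fit without sex, and the share of all genes that passed with sex was not counted.

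The slides tie doses together in a way that the groups alone do not show. Each control slide also held 1 rat at 600 ppm, each middle slide 2 rats at 600 ppm and 2 at 1000 ppm, and each of the remaining slides 1 rat at 1000 ppm and 3 at 1500 ppm. Within these last slides the mean of the 3 rats at 1500 ppm minus the single rat at 1000 ppm was, for Fos, -2.67 on the male slide and -2.80 on the female slide. For Junb it was -1.01 and -0.63, and for Jun -0.06 and -0.52. All of these point the same way, with no test because 1 rat stands on one side. For Fos these single rats, 13 (0.02) and 33 (0.27), were the highest male and the highest female at 1000 ppm. The means of all rats at 1000 and 1500 ppm were -0.93 and -2.59 for Fos. The fixed block below joins 1500 ppm to the other doses only through these single rats.

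Between control and 600 ppm the slides of the 2 sexes went apart. In females the 600 ppm rat minus the mean of the 3 control rats of its slide was -3.25 for Fos, -1.17 for Jun and -1.14 for Junb. In males it was 0.64 for Fos, 0.14 for Junb and -0.30 for Jun. On the slides with 2 rats of each dose, 1000 ppm minus 600 ppm was -0.14 in males and -1.35 in females for Fos.

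With slide as a fixed block, which joins control to 1500 ppm only through the slides they share with the middle doses, the differences at 1500 ppm were -4.78 for Fos (standard error 1.63), -1.31 for Jun (0.44) and -1.53 for Junb (0.59). These were called, as was Jun at 600 ppm (-0.74) and 1000 ppm (-1.03), all with adjusted p-values from limma of 0.869 or more. In that fit 108, 134 and 201 of the 21255 genes tested were called lower at 600, 1000 and 1500 ppm. Without a block 97, 73 and 111 were. With slide as a random block (consensus correlation 0.287) the differences at 1500 ppm were -2.92 for Fos, -0.97 for Jun and -0.88 for Junb. The same 3 genes were called at this dose, where 65 of all genes were called lower. At 1500 ppm the differences of the 3 genes were of greater size under both blocks than without, and the intervals of the fixed block were wider.

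**Figure D3:**
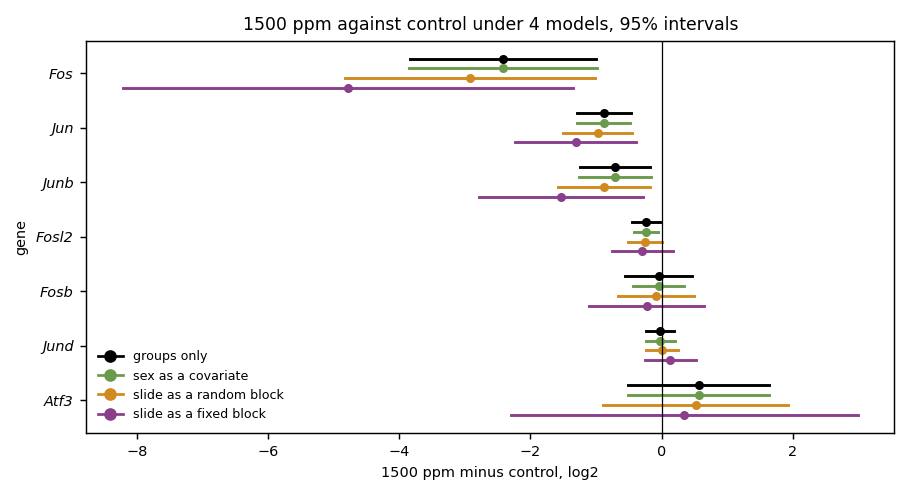
Difference between 1500 ppm and control (horizontal axis, log2) for each AP-1 gene tested under 4 limma models on the same 24 arrays, with 95% intervals. The intervals of Fos, Jun and Junb lie below 0 under each model and those of Fosb, Jund and Atf3 include 0 under each.

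At 1500 ppm the differences of Fos, Jun and Junb from control pointed lower in both sexes and were of greater size in females. For Fos the difference was -3.36 in females and -1.48 in males, for Jun -1.21 and -0.56, and for Junb -1.19 and -0.22. At 600 and 1000 ppm males pointed higher for Fos (0.26 and 0.35) and Junb (0.18 and 0.38). Females pointed lower there (-1.86 and -1.87 for Fos, -0.73 and -0.80 for Junb). For Jun the males differed by -0.01 and -0.34 at these doses and the females by -0.93 and -0.89. In the control rats Fos averaged 0.83 ± 0.72 in the 3 females and -1.17 ± 1.47 in the 3 males (SD), while at 1500 ppm the sexes had -2.53 ± 1.59 and -2.65 ± 0.69. For Fos, the means of the sexes thus lay close at 1500 ppm and apart in the control rats, where the ranges overlapped. For Jun the means were 4.07 in control females and 3.73 in control males, and 3.14 and 3.72 at 600 ppm. Males and females were not tested against each other within a group.

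Tested as an interaction in limma, the dose effect differed between the sexes at an adjusted p-value under 0.05 for 0 of the 7 genes at each dose. Across all genes that share was 0% at 600 and at 1000 ppm and 5.02% at 1500 ppm. Without adjustment 1, 2 and 1 of the 7 had a p-value under 0.05, and 1060, 2001 and 4284 of all genes. At 1500 ppm the interaction of Fos was -1.88 (standard error 1.36, adjusted p = 0.472) and that of Jund -0.52 (standard error 0.17, adjusted p = 0.0936). Leaving out control rat 2 or 22 brought Jund to an adjusted p-value from limma of 0.0425 or 0.0433, and leaving out control rat 23 to 0.226. Over the other settings that keep all rats this interaction of Jund ran from -0.68 to 0.07, so its sign was not the same in each. Because a slide held 1 sex, a level difference between the sexes cannot be told apart from one between slides. The interaction can be fitted within slides, though some slides have 1 rat of a dose. With slide as a fixed block it was -5.23 for Fos and 0.07 for Jund at 1500 ppm.

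Fosb differed between the sexes. Its mean was -1.39 ± 0.52 in control males and -0.52 ± 0.37 in control females (SD, n = 3), and the males were lower at each dose as well. Over all groups males were lower by 0.56 on the log2 scale (standard error 0.13, adjusted p = 0.00414 from limma). Fosl2 was higher in males by 0.19 (standard error 0.06, adjusted p = 0.0293). The other 5 genes had adjusted p-values of 0.334 or more, and 24.9% of all genes passed. With slide as a random block the adjusted p-value from limma was 0.0234 for Fosb and 0.105 for Fosl2, and 2826 of all genes tested passed.

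The members also differed in how far control rats lay apart. Among the 6 control rats the SD of Fos was 1.51 and that of Atf3 1.81, above the control SD of 99.5% and 99.8% of all genes tested, whose median was 0.217. The SD of Junb (0.73) exceeded 95.6%, that of Fosb (0.62) 93.1% and that of Jun (0.43) 82.7%. Jund (0.27) and Fosl2 (0.25) were nearer the middle, above 62.1% and 58.2%. Without rat 1 the spread of Atf3 was 0.35.

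Rat by rat, Fos and Junb rose and fell together. Over the 24 rats, which share slides and scaling, their Pearson correlation was 0.93, and it was 0.92 after each group's mean was taken off, 0.88 in males and 0.96 in females. Jun followed less closely, with 0.75 to Fos (0.65 within groups) and 0.75 to Junb (0.69). Fos correlated at 0.27 with Fosb, 0.25 with Fosl2, 0.11 with Jund and 0.15 with Atf3, and the last was 0.27 without control rat 1. These are descriptions of 24 rats, with no test.

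**Figure D4:**
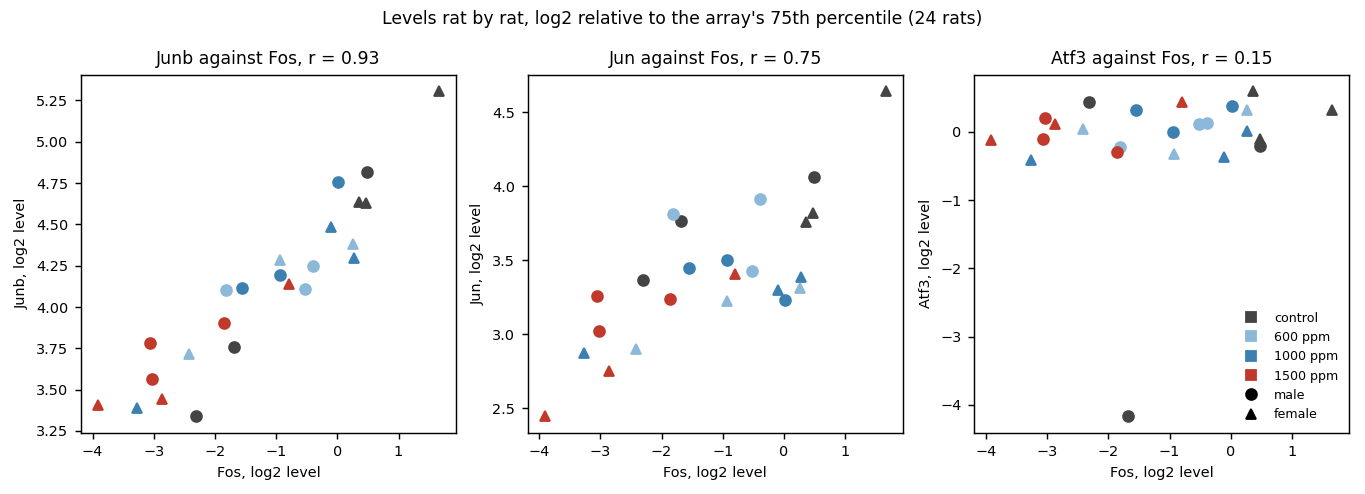
Levels of Junb, Jun and Atf3 (vertical axes) against Fos (horizontal axis) in each of 24 rats, log2 relative to the array's 75th percentile; colour gives the dose and shape the sex. Junb follows Fos over its whole range (r = 0.93), Jun follows with more scatter (r = 0.75), and Atf3 stays between -0.41 and 0.60 in 23 rats.

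Among 12405 genes with a symbol, the 5 whose levels were most like Fos by Pearson correlation over 24 rats were Btg2 (0.93), Ccn1 (0.91), Egr1 (0.88), Nr4a2 (0.85) and Zfp36 (0.85). For Junb they were Btg2 (0.92), Ccn1 (0.88), Nr4a2 (0.87), Ier3 (0.85) and Zfp36 (0.84). All 6 genes stand on the list of other immediate early genes below.

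The genes around AP-1 were followed in lists. Of 11 partners and relatives tested, such as Batf, Jdp2, Atf2 and the Maf genes, and of 13 kinases and factors upstream, such as Mapk8, Elk1 and Srf, 0 were called at any dose. With limma at 1500 ppm their median differences were -0.07 and -0.03, and 0 of these 24 genes had an unadjusted p-value under 0.05. At 600 ppm Map3k1 (-0.21) did, and at 1000 ppm Mapk8 (-0.22) and Map2k7 (-0.43), all short of 1.5-fold. The mRNA of a kinase does not measure its activity. Of 7 phosphatases that act on those kinases, Dusp1, itself an early gene, was lower at 1500 ppm by 1.32 on the log2 scale (standard error 0.30, adjusted p = 0.182 from limma). The other 6 phosphatases were not called at any dose. Of these, Dusp6 (-0.38) and Dusp8 (-0.55) had an unadjusted p-value under 0.05 at 1500 ppm, and Dusp6 (-0.38) also at 1000 ppm.

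Of 16 genes commonly given as AP-1 targets, 13 were tested and 0 were called at 1500 ppm, where 8 pointed higher and 5 lower, with a median of 0.04. The collagenase Mmp13 was called lower at 600 ppm (-1.18, standard error 0.53, adjusted p = 0.997 from limma) and differed by -0.23 and -0.80 at the higher doses. Hmox1, an antioxidant enzyme, differed by -0.11 at 1500 ppm, Ccnd1, a cyclin of the G1 phase, by 0.18 and Ccl2, a chemokine for monocytes, by 0.60, and none of these was called.

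Of 17 other immediate early genes tested, 5 were called lower at 1500 ppm: Nr4a1 (-1.096), Klf2 (-1.04), Zfp36 (-0.98), Btg2 (-0.75) and Klf4 (-0.71), with adjusted p-values from limma of 0.157 to 0.572. Klf2, a factor of the vessel wall, was also called at 1000 ppm (-0.79). The list's median was -0.55 at 1500 ppm, where 13 of 17 pointed lower, and 0 were called higher. Over all genes tested, 0.522% were called lower at that dose.

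**Figure D5:**
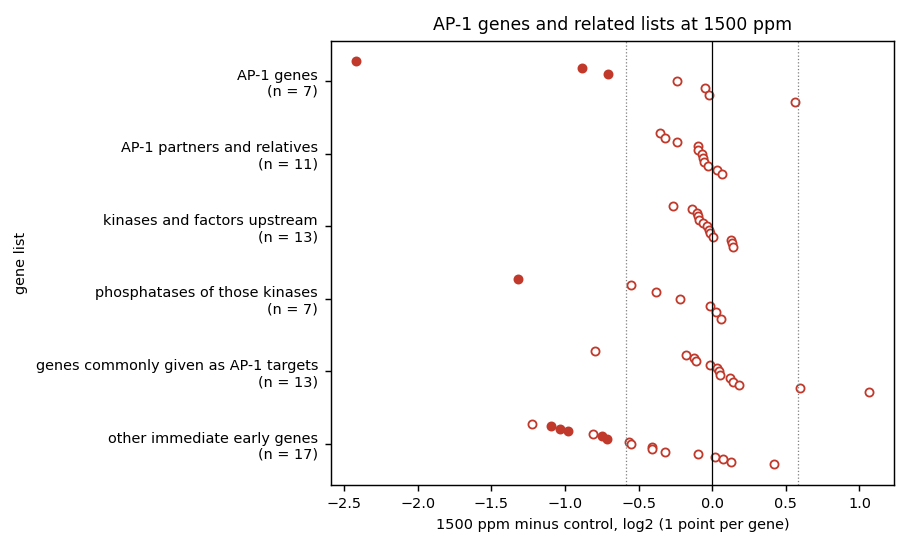
Difference between 1500 ppm and control (horizontal axis, log2, 1 point per gene) for the 7 AP-1 genes and 5 related lists; filled points were called and dotted lines mark a 1.5-fold difference. Called genes lie to the left, among AP-1 genes, phosphatases (Dusp1) and other immediate early genes, and the partners, upstream factors and targets have 0.

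Other gene groups moved at the same doses. Of 7 clock genes at 1500 ppm, Dbp, Per2, Nr1d1, Ciart and Tef were called higher (by 0.87 to 2.06) and Bmal1 lower (-1.04), at a dose where 0.701% of all genes were called higher and 0.522% lower. Their summed level adds Bmal1 to genes called the other way and is weighted to the brightest, so it does not measure clock phase. This sum ran from 1.81 to 3.20 in the control rats and from 3.07 to 4.08 at 1500 ppm. Its correlation with Fos was -0.32 over 24 rats and 0.10 within groups, and with Jun -0.58 and -0.31. Their part in the result was not tested, and the time of day of collection was not given in the sources used here.

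Of 5 glucocorticoid-responsive genes, Ddit4 was called lower at 1000 ppm (-1.33) and 1500 ppm (-1.43), and the summed level of the 5 ran from 2.98 to 4.90 in the control rats and from 3.44 to 4.33 at 1500 ppm. Heart muscle genes were present in the lung pieces. Of 7 tested, Actc1, Tnnt2 and Tnni3 were called higher at 1000 ppm and 0 at 1500 ppm, and the summed level ran from 1.78 to 5.18 in the control rats, 3.09 to 6.97 at 1000 ppm and 1.81 to 6.99 at 1500 ppm, with Nppa well above background on 5 of 24 arrays. Over 24 rats the summed heart muscle level correlated at -0.01 with Fos, -0.35 with Jun, -0.16 with Junb and -0.59 with Jund. Jun correlated at -0.42 with the skeletal muscle level, 0.44 with the glucocorticoid-responsive level and 0.38 with the macrophage level, where Fos had -0.02, -0.003 and 0.11 and Junb -0.11, 0.04 and 0.08. The glucocorticoid-responsive level correlated with Fosl2 at 0.61, the summed endothelial level with Fosl2 at 0.70 and the summed red cell level with Jund at 0.62. The summed macrophage level (Cd68, Mrc1 and Adgre1; Marco was above background on 1 array) ran from 1.45 to 2.25 in the control rats and from 1.17 to 1.99 at 1500 ppm. Of the other marker lists, the red cell gene Alas2 was called lower at 1500 ppm (-0.81), and S100a8 of neutrophils (0.71) and Ckm (1.84) and Acta1 (0.90) of skeletal muscle were called higher at 1000 ppm. The part of these groups in the AP-1 values was not tested.

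The array of 1500 ppm rat 36, the one with the lowest 75th percentile, also had the lowest Fos, Jun, Junb and Fosl2 of its group. Without this rat the differences at 1500 ppm were -2.15 for Fos, -0.77 for Jun and -0.65 for Junb, and the 3 genes were still called.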

How the data were processed

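Total RNA of 24 rat lungs was hybridized to one-colour Agilent arrays. The authors deposited intensities from Feature Extraction 11.5.1.1, in which the spot signal is background-subtracted and detrended within the array and not scaled between arrays; their series table holds the same intensities (at least 99.7% of probes equal within 0.001 on the log2 scale on each array). Of 42877 spots that are no controls, unflagged spots were averaged into 30367 probes, named by accession through a RefSeq table of GRCr8 used for names only. The log2 signal minus the array's 75th percentile was taken, a probe was kept (23616 were) if 5 or more of the 6 arrays of some group had it well above background, and a gene took the values of its brightest probe.

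Each dose was compared with control by limma 3.58.1 (R 4.3.3, data.table version 1.17.8) on 24 arrays with 1 estimate of the spread, tested on simulated data first. Exact permutation tests of 6 against 6 were two-sided, run for each gene (smallest possible p = 0.00216); 21 such comparisons of AP-1 genes were made, and adjusted p-values run over all genes tested. Marker levels are the log2 of the summed linear levels of a list. Correlations are Pearson's. Promoters were searched with Python 3.11.15. The 8 genes, the gene lists and the rule for named genes (the 8 genes, the 5 most like Fos and like Junb, and called genes of the lists) were chosen with earlier results of these data known. Alternatives were normexp background correction (offset 50, on the median spot signal because no mean signal is used here), quantile and median scaling, the authors' table unscaled, no filter on dim probes or a stricter one (24 of 24 arrays), the t-test of the methods, separate fits of each dose with control, sex, slide as a fixed or random block, each probe on its own row, and leaving out each of 24 rats. The random block for the male-female levels was chosen after seeing the data. Replicates are separate rats.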

Additional observations from a re-analysis of the deposited data

Results flagged for a closer look

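In 3 of 32 groups of 6 rats (8 probes of 7 genes, 4 groups) the lowest rat lay far from the other 5, measured as its gap to the nearest rat divided by the group's whole range; about 1 in 20 groups does so by chance, and 5.19% of all genes did in the control group and 6.66% in the 600 ppm group. The ratio was 0.830 for Atf3 in control rat 1. That rat lay so far below the other control rats for 0.297% of all genes tested. It was 0.682 for Fosl2 in 600 ppm rat 28 and 0.631 for Fosb in 600 ppm rat 6. No highest rat was so far from the others.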

How the results depend on the processing

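The number of AP-1 genes called moved in these settings: at 1000 ppm it was 0 with normexp background correction and 0 with the authors' table unscaled, where Jun differed by -0.44 and -0.51, and at 600 ppm it was 1 with slide as a fixed block. Leaving out 1 rat gave 0 calls at 600 ppm each time, 0 to 1 at 1000 ppm and 2 to 3 at 1500 ppm. No call reversed under any setting. At 1500 ppm the difference ranged over the other settings from -4.78 to -2.18 for Fos, -1.31 to -0.73 for Jun and -1.53 to -0.62 for Junb; the methods' t-test did not call Junb. Normexp moved the median of all genes at 1000 ppm by -0.12 and the unscaled table by 0.10. Differences that were not called changed sign in 10 of 204 values under other settings and in 17 of 408 with 1 rat left out. Over the settings that keep all rats, the number of all genes called ranged from 11 to 377 higher and 28 to 210 lower at 600 ppm, 74 to 539 and 30 to 352 at 1000 ppm, and 26 to 321 and 65 to 201 at 1500 ppm. No paired analysis was possible because the groups share no rat numbers, apart from the slide blocks given above. Signal over background limits Fosl1, above background on 4 of 24 arrays. The cause of these moves was not tested.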
